A study of Homo sapiens with 6 samples.

Results

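The loci of 9 transcription factors of the erythroid and megakaryocytic lineages, GATA1, GATA2, TAL1, KLF1, LMO2, NFE2, MYB, RUNX1 and LDB1, were examined for open chromatin in K562 cells. Members were the listed open intervals that touched the hg19 span of 1 of these genes or the 10 kb on either side of it. They numbered 27 of 48967 intervals over 6 libraries, and 14 of 17466 regions once overlapping intervals of different libraries were merged. All 9 loci held at least 1 interval in at least 1 library.

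K562 is an established human leukaemia line, from a chronic myeloid leukaemia, that keeps erythroid and megakaryocytic features. The labels give its cell type as lymphoblast. Open chromatin was read by ATAC-seq, in which a transposase cuts accessible DNA and tags it for sequencing. Of 3 modified lines, 1 carried the vector control, 1 overexpressed wild-type SLFN11 and 1 overexpressed SLFN11 bearing E669Q, a substitution in its ATPase domain. Each was treated with DMSO or with camptothecin (CPT), giving 6 groups of 1 library, named below by line and treatment, as in wild-type/CPT. CPT, a topoisomerase I poison that stalls replication forks, was given at 1000 nM for 4 h, and the DMSO time is not stated in the labels. The promoter of the constructs, and whether a line is 1 clone, are not stated in those labels. The series asks how SLFN11, a protein recruited to stressed replication forks, alters chromatin under replication stress. With 1 library per group no difference has a replicate check, no test was made, and every interval quoted covers counting error only.

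These factors act on one another's genes and on the same enhancers. GATA1 and GATA2 bind GATA motifs, and GATA1 replaces GATA2 as progenitors become red cells or megakaryocytes. TAL1 is a helix-loop-helix factor that is joined to GATA1 by the adaptor LMO2 and by LDB1, which brings enhancers and promoters together. KLF1 binds CACCC boxes of erythroid genes such as adult beta globin, and NFE2 drives platelet formation and binds the globin control region. MYB keeps progenitors dividing, and RUNX1 is needed for blood stem cell formation and for megakaryocytes.

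A gene start here is the 5′ end of the gene's hg19 span, and other starts of a gene were not placed on hg19. Of the starts of the 9 genes, 3 lay inside a listed interval in at least 1 library, namely those of TAL1, MYB and LDB1. For each of these genes a RefSeq promoter window, which need not be that of the covered start, is shown beside one of KLF1. The KLF1 start was covered in no library, and its window holds GATA motifs. The windows of GATA1, GATA2 and RUNX1, whose starts were also not covered, hold none. Whether motifs bear on the listing of a start was not tested. Each sequence is the 250 bases before a gene start in RefSeq on GRCh38.p14, read 5′ to 3′ on the gene's strand, with GATA motif matches in capitals.
TAL1, chr1:47232336-47232585, minus strand: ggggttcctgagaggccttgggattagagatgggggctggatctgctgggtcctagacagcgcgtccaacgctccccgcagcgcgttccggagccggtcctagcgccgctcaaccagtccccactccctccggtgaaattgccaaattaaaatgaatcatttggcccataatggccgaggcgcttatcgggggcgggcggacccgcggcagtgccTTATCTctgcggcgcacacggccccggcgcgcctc
KLF1, chr19:12887202-12887451, minus strand: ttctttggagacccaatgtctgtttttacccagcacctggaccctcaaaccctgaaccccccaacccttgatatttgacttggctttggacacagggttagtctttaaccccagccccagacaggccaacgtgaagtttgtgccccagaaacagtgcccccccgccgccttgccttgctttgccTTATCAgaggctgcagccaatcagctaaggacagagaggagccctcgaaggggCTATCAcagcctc
MYB, chr6:135181058-135181307, plus strand: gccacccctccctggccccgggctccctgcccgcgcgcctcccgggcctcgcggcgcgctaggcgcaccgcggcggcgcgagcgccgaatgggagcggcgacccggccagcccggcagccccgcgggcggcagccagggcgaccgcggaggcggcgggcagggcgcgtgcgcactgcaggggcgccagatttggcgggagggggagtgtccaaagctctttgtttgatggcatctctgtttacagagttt
LDB1, chr10:102115003-102115252, minus strand: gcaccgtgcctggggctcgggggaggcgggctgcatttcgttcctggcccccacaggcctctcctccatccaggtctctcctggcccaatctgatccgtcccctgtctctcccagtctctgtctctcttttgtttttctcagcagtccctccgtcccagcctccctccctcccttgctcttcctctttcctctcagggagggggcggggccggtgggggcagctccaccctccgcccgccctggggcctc

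The motif was searched on both strands as GATA with A or T before it and A or G after it. KLF1 held 2 matches, 7 and 60 bases before its start, and TAL1 held 1, 29 bases before the farther upstream of its 2 starts in the table. The MYB and LDB1 windows held none. Among 35116 RefSeq promoter windows of this length, 22.3% held a match. The table matched 7 of the 9 members with 9 windows, and 2 of those 9 windows held a GATA match. CACCC, the core of the KLF1 motif, was found on either strand in 7 of the 9 windows, against 54.7% of all windows. The RUNX motif TGTGGT was found in 1 window, that of the other TAL1 start, against 3855 of all windows, and the NF-E2 core TGAGTCA in 0, against 4.20%. GC content was 54.8% to 75.6%. These windows come from another build than the intervals, so a window and an interval were not aligned base for base. Whether the start of a window is the one that an interval covered was not checked, for LDB1 as for the others.

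The libraries differed in depth, and with it in how much they listed. They held 5246 to 12337 intervals, at recovered depths of 1.00 to 2.22 relative to the shallowest, vector/DMSO. The deepest were E669Q/CPT (2.22) and wild-type/DMSO (1.72). Depth was recovered from the authors' fold and −log10 p-value of each peak, which also give the summit pileup, the count stacked at the highest point. A fragment below is 1 unit of this count. Whether it stands for a whole fragment or for a read end is not given. A low pileup from fewer cells with an open site and one from fewer cuts per open site cannot be told apart.

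Summit pileups of member intervals were 7 to 19 fragments, with a median of 10, against medians of 9 to 12 over all entries of the 6 lists. The authors' fold at the summit, over local background, was 4.00 to 8.75. Ranked by this fold within its own list, the median member interval stood at percentile 37.0, 7 of 27 stood above the middle of their list, and 1 stood in the top 10%. Per Mb of sequence the windows of the 9 genes, 0.575 Mb in all, held 1.85 to 4.36 times as many intervals as the whole genome in the same library. These ratios rest on 2 to 10 intervals per library. The whole genome includes sequence far from genes, and windows of other genes were not counted. Local background around member intervals was 1.12 to 5.27 times the lowest of the library, with a median of 3.14.

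**Figure D1:**
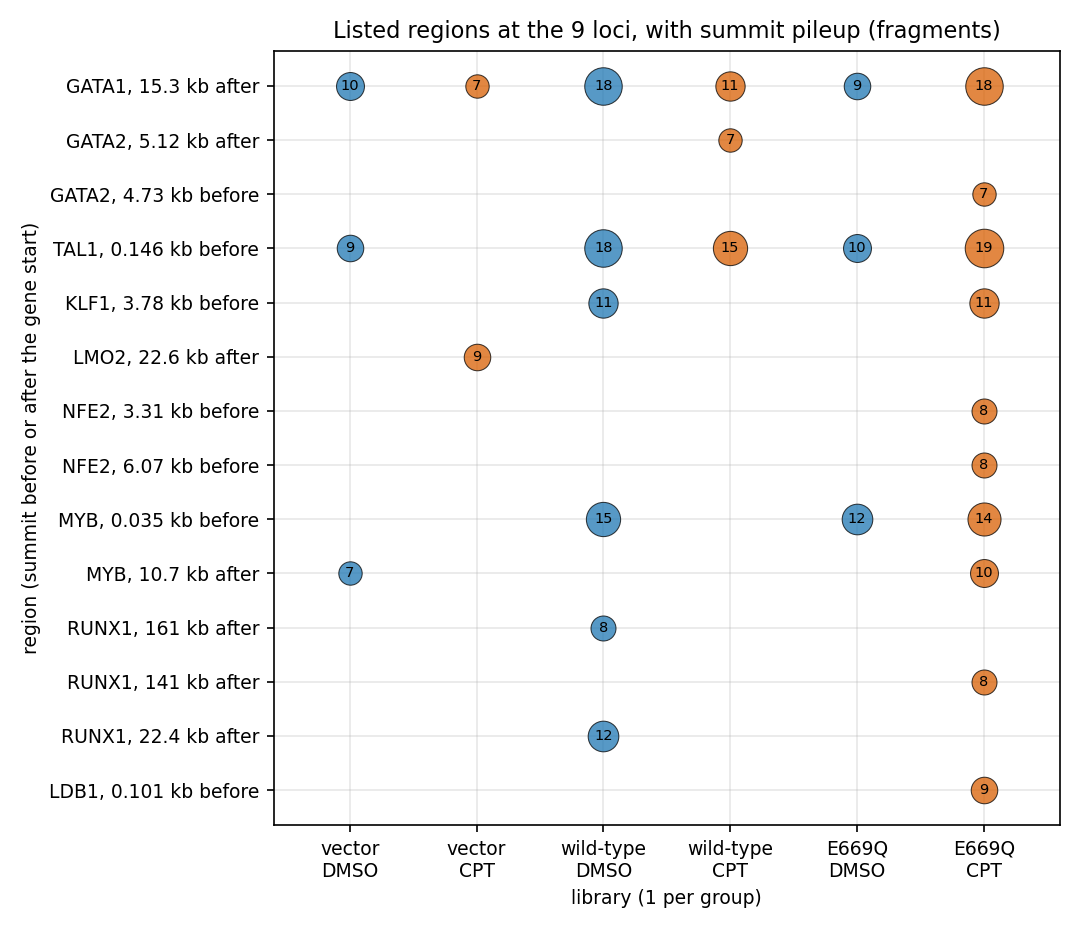
Summit pileup in fragments (number and dot area) of each listed region at the 9 loci, by library, with blue for DMSO and orange for CPT. Rows give the distance of the strongest summit before or after the gene start. GATA1 has a dot in all 6 libraries and TAL1 in 5, and 5 rows have a dot in E669Q/CPT alone.

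The GATA1 locus held 1 region, and it was the only one of the 14 listed in all 6 libraries. It lay at chrX:48660049-48660651 on hg19, past the end of the gene, with its intervals 7332 to 7637 bp beyond the last base of GATA1 and its summits 15.2 to 15.5 kb after the start. The next protein-coding gene on that side in RefSeq is HDAC6, a tubulin deacetylase gene read in the same direction. Its start side therefore faces the end of GATA1, but the HDAC6 start was not placed on hg19. Whether the region covers the HDAC6 start, and whether it belongs to GATA1 or HDAC6, was not tested. No interval was listed over the GATA1 start or in the GATA1 span in any library. The pileup was 10 fragments in vector/DMSO, 7 in vector/CPT, 18 in wild-type/DMSO, 11 in wild-type/CPT, 9 in E669Q/DMSO and 18 in E669Q/CPT. The high values are those of the 2 deepest libraries. Scaled to the typical region found in all 6 libraries, these became 10.0, 6.63, 9.86, 10.9, 7.11 and 9.79, and their counting intervals overlapped.

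With CPT over DMSO the scaled pileup of the region past GATA1 was 0.663 times in the vector line (95% counting interval 0.214 to 1.93). It was 1.10 times in wild-type (0.470 to 2.46) and 1.38 times in the E669Q line (0.588 to 3.48). In the vector line the DMSO summit lay outside the CPT interval. In the E669Q line the CPT summit lay outside the DMSO interval. The ratios of the vector and E669Q lines therefore compare different summits. The value of the wild-type line lay on the other side of 1 when libraries were scaled by recovered depth (log2 −0.05 against 0.14). Over vector/DMSO the ratio was 0.986 for wild-type (0.432 to 2.39) and 0.711 for E669Q (0.256 to 1.95). Over vector/CPT it was 1.64 (0.581 to 4.99) and 1.48 (0.589 to 4.18). The vector/CPT summit lay outside the wild-type/CPT interval. The 2 deepest libraries had more than 1 called summit in this region, 3 in E669Q/CPT and 2 in wild-type/DMSO, and each other library had 1. With all called summits summed, a sum that follows their number, the wild-type value was log2 −0.58.

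GATA2 had 2 regions, each in 1 library. The one inside the gene, at chr3:128206833-128207046, had its summit 5.12 kb after the start and was listed in wild-type/CPT alone (7 fragments, fold 4.94). RefSeq gives GATA2 a second start inside the gene. The other region, at chr3:128216707-128216882, lay 4.73 kb before the start and was listed in E669Q/CPT alone (7 fragments, fold 4.81). The other 4 libraries, those of the vector line and both SLFN11 lines with DMSO, listed nothing at GATA2.

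TAL1 gave the only region at the start of a member gene that recurred in more than 3 libraries. It spanned chr1:47697715-47698208, with summits 0.0780 to 0.228 kb before the start of the gene. The pileup was 9 fragments in vector/DMSO, 18 in wild-type/DMSO, 15 in wild-type/CPT, 10 in E669Q/DMSO and 19 in E669Q/CPT, and the region was not listed in vector/CPT. Scaled pileups were 9.0, 9.86, 14.8, 7.90 and 10.3, with overlapping intervals. CPT over DMSO was 1.50 times in the wild-type line (0.705 to 3.16) and 1.31 times in the E669Q line (0.579 to 3.15). Both were above 1 under each scaling. In the wild-type line the DMSO summit lay outside the CPT interval, so the ratio of that line compares different summits. Over vector/DMSO the ratio was 1.10 for wild-type (0.468 to 2.77) and 0.878 for E669Q (0.321 to 2.44). In the vector/CPT library a pileup of 10.8 would be expected from the 5 other libraries, and 8 were needed for listing.

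**Figure D2:**
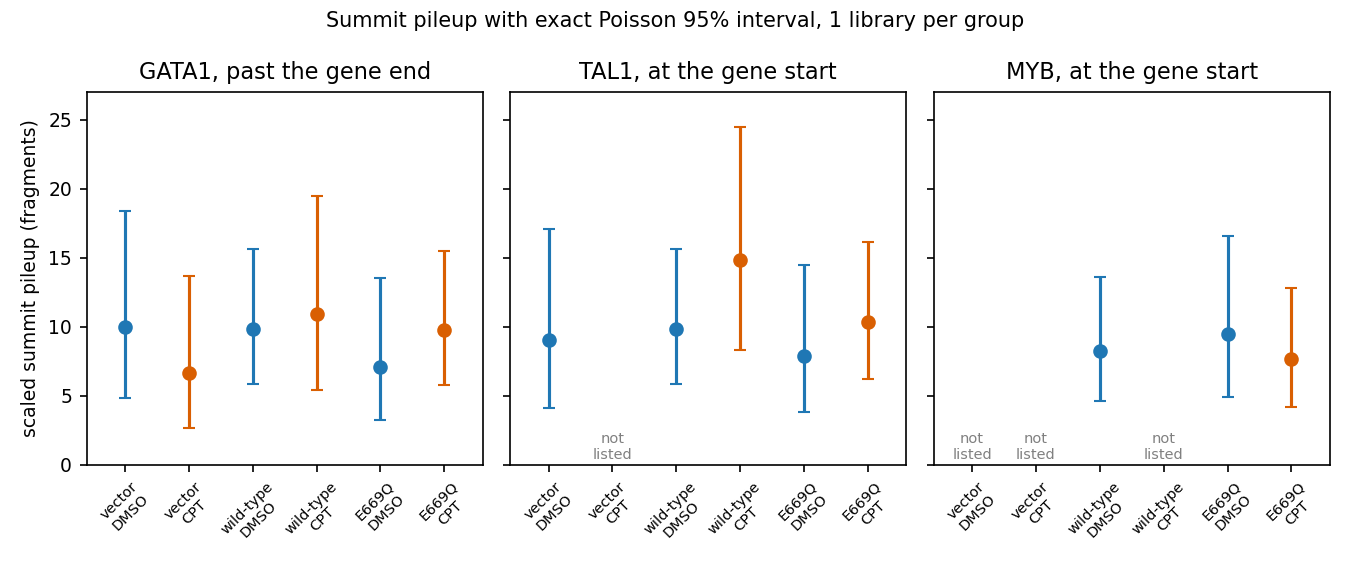
Scaled summit pileup in fragments at the 3 regions listed in 3 or more libraries, by library, with exact Poisson 95% intervals as bars, blue for DMSO and orange for CPT. Bars overlap within each panel, and the highest point is TAL1 in wild-type/CPT at 14.8.

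The partners of TAL1 were sparsely listed. LMO2 had 1 region, at chr11:33891074-33891259, inside the gene and 22.6 kb after its start, in vector/CPT alone (9 fragments, fold 6.77, percentile 66.9 of its list). From that pileup 15.7 fragments would be expected in E669Q/CPT and 15.6 in wild-type/DMSO, where 7 were needed, and neither library listed it. LDB1 had 1 region, at chr10:103880124-103880387, which covered its start and was listed in E669Q/CPT alone (9 fragments, fold 5.33). In the 5 other libraries the expected pileup was 0.826 to 1.49 times the one needed.

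KLF1 and NFE2 were listed only upstream of their starts. The KLF1 region, at chr19:13001655-13001989, lay 3.73 to 3.78 kb before the start, on the side of GCDH, a mitochondrial dehydrogenase gene read away from KLF1. The GCDH start was not placed on hg19. Whether the KLF1 region covers the GCDH start, and whether it belongs to KLF1 or GCDH, was not tested. It had 11 fragments in each of wild-type/DMSO and E669Q/CPT, the 2 deepest libraries, at scaled pileups of 6.03 and 5.98. NFE2 had 2 narrow regions, of 122 and 146 bp, at chr12:54698202-54698323 and chr12:54700947-54701092. They lay 3.31 and 6.07 kb before the start and were listed in E669Q/CPT alone, with 8 fragments each and folds of 4.34 and 4.84.

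MYB had a region at its start and another inside the gene. The first, chr6:135501767-135502791, had 15 fragments in wild-type/DMSO, 12 in E669Q/DMSO and 14 in E669Q/CPT, and neither vector library nor wild-type/CPT listed it. Expected pileups in those 3 libraries were 8.32 to 8.78 against 8 needed, so their absence could not be told from a pileup just under the limit. In the E669Q line the DMSO interval covered the start, with its summit 0.0300 kb before it. The CPT interval ended 337 bp short of the start with its summit 0.514 kb before it, and the 2 shared 1 base. The ratio of CPT over DMSO, 0.803 (0.345 to 1.90), therefore compares different summits. The second region, chr6:135513050-135513481, lay 10.7 to 10.9 kb after the start, with 7 fragments in vector/DMSO and 10 in E669Q/CPT. It was not listed in wild-type/DMSO, where 10.9 would be expected and 6 were needed.

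RUNX1, the longest of the genes at 261 kb, had 3 regions inside it and none over the start of its span. RUNX1 is known to be read from a distal promoter at the start of the span and from a proximal one inside it, with an enhancer active in blood stem cells in the intron after the distal promoter. The region at chr21:36399130-36399354, 22.4 kb after the start, had the highest fold of all member intervals, 8.75 with 12 fragments at percentile 89.2, and was listed in wild-type/DMSO alone. From it 12.1 fragments would be expected in E669Q/CPT, where 6 were needed and the region was not listed. The region at chr21:36260983-36261187, 161 kb after the start, was also in wild-type/DMSO alone, and at fold 4.00 was the weakest member. The region at chr21:36280846-36281133, 141 kb after the start, was in E669Q/CPT alone (8 fragments, fold 5.82). The RefSeq promoter window of RUNX1 was not placed on hg19, so whether any of these regions covers its start was not checked. Whether any of them is the known promoter or enhancer was not tested.

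Across the loci, 9 of 14 regions were listed in 1 library (64.3%, exact Clopper-Pearson 95% interval 35.1 to 87.2), against 38.1% of all 17466 regions. Of these 9, 5 were in E669Q/CPT, 2 in wild-type/DMSO, and 1 each in vector/CPT and wild-type/CPT. All 6 libraries listed 1 of 14 (7.14%, 0.181 to 33.9), against 12.3% of all regions. The interval of the first share starts just below the share of all regions, and that of the second includes it. Of the 14 regions, 12 were in at least 1 of the 2 deepest libraries, against 88.6% of all regions.

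**Figure D3:**
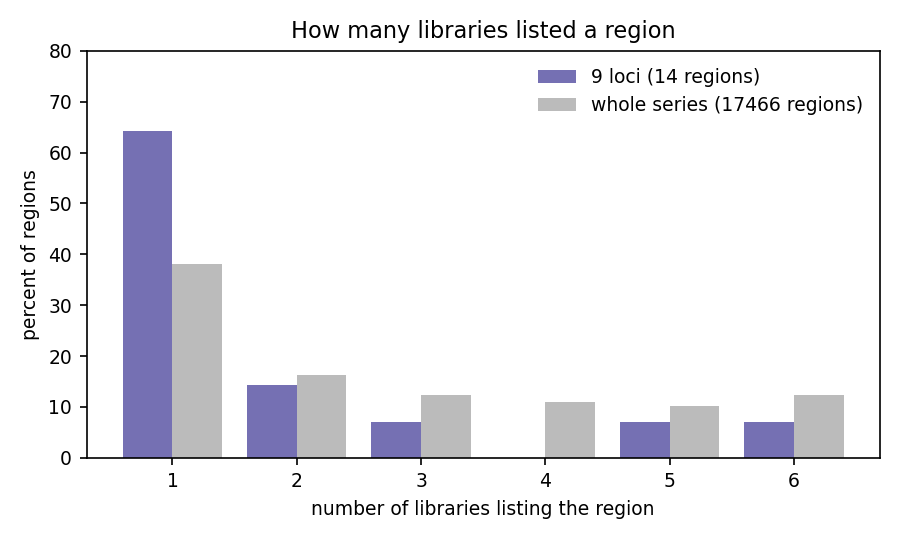
Percent of regions (vertical axis) by the number of libraries that listed them (horizontal axis), for the 14 regions at the 9 loci and for all 17466 regions. The loci have 64.3% of regions in 1 library and the whole series 38.1%.

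With CPT the number of member intervals fell from 3 to 2 in the vector line and from 6 to 3 in the wild-type line, and rose from 3 to 10 in the E669Q line. The whole lists went from 5246 to 5806, from 11651 to 5562 and from 8365 to 12337 intervals. An interval is called lost when it was listed with DMSO and no interval with CPT overlapped it by 1 bp or more, and gained in the reverse case. In the vector line TAL1 and the MYB gene body were lost, 2 of 3 intervals (66.7%, 9.43 to 99.2, against 39.5% of all intervals of that list), and LMO2 was gained, 1 of 2 (against 45.1%). In the wild-type line KLF1, the MYB start and 2 RUNX1 intervals were lost, 4 of 6 (66.7%, 22.3 to 95.7, against 59.5%), and GATA2 was gained, 1 of 3 (against 15.1%). In the E669Q line 0 of 3 were lost (0 to 70.8%, against 19.0%), and LDB1, both NFE2 regions, KLF1, RUNX1, GATA2 and the MYB gene body were gained, 7 of 10 (70.0%, 34.8 to 93.3, against 45.2%). Each counting interval includes the share of its whole list. In the vector line, with 3 and 2 member intervals, no count could have given an interval that left that share out. Relative depth moved in the same direction as the count in both SLFN11 lines, from 1.72 with DMSO to 1.09 with CPT in wild-type and from 1.33 to 2.22 in E669Q, and against it in the vector line, from 1.00 to 1.09; its part in the counts was not tested. When an overlap of 50% of both intervals was asked for, 2 of 3 E669Q intervals were lost.

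In all, 12 pileup ratios could be formed at GATA1, TAL1 and the MYB start, the regions listed on both sides. They come from 7 pairs of libraries that share libraries, so they are not independent. Each sets the highest summit of 1 library against that of the other, wherever in the region it lies. None of the 12 passed 2-fold with a counting interval off 1. Over all regions listed on both sides, CPT over DMSO passed in 0.340% (vector line), 1.53% (wild-type line) and 0.700% (E669Q line). Wild-type over vector passed in 0.998% with DMSO and 1.41% with CPT, and E669Q over vector in 1.67% and 2.31%. The counting intervals at the loci reached from 0.214 to 4.99. All 12 included a 2-fold change in at least 1 direction, so a change of that size in that direction was not excluded.

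For each region and each library that did not list it, 57 cases in all, the pileup expected from the libraries that did list it was set against the pileup needed to enter the list. The expectation was below the need in 25 cases, with a median ratio of 1.04 and a range of 0.626 to 2.24. It was below in 6 of 11 cases in vector/DMSO, 7 of 12 in vector/CPT and 7 of 11 in wild-type/CPT. It was below in 4 of 11 cases in E669Q/DMSO, 1 of 4 in E669Q/CPT and 0 of 8 in wild-type/DMSO. The highest ratios belonged to LMO2 and to the RUNX1 region 22.4 kb after the start. Expectations from 1 library run high, because the region was picked up where its count was high.

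**Figure D4:**
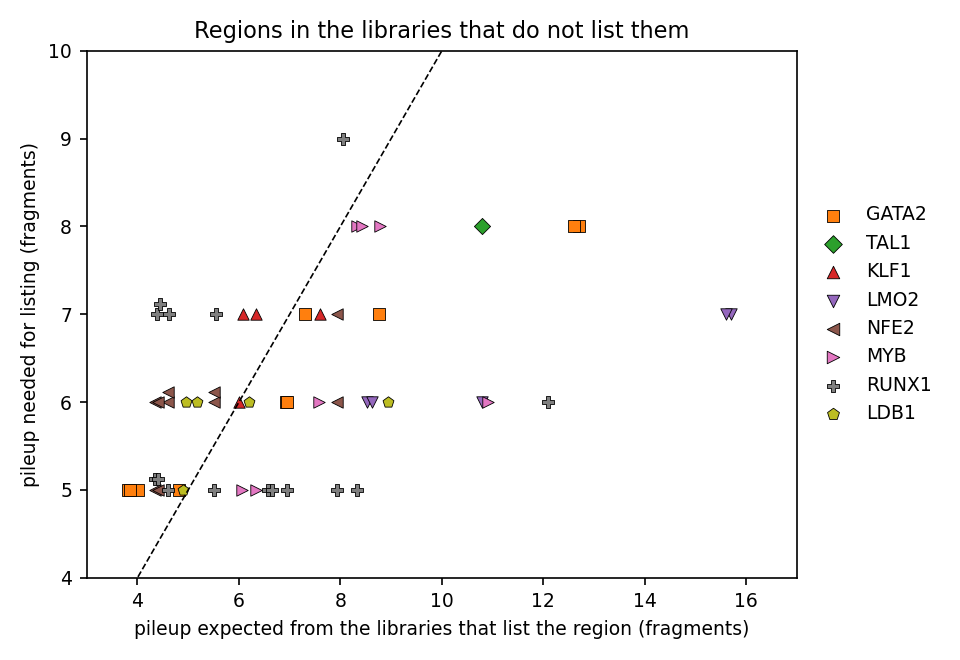
Expected pileup (horizontal axis, fragments) against the pileup needed for listing (vertical axis, fragments) for the 57 cases of a region and a library that did not list it, with coinciding points set slightly apart upwards and the dashed line at equality. The LMO2 points at 15.6 and 15.7 lie farthest to the right of the line, and 25 points lie to its left.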

How the data were processed

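ATAC-seq peak lists of 6 K562 libraries, 1 per group, were used. MACS2 2.1.2, Bowtie2 2.2.6, Trimmomatic 0.39, Picard 2.9.2 and SAMtools 1.8, with the hg19 build, are named without roles or settings in the submitters' processing notes; read shifting and duplicate handling are not given in the sources used here. Peaks were listed by the authors per library. Each deposited peak carries a fold enrichment (a ratio over local background), a −log10 p-value, a −log10 q-value and a score that is the whole part of 10 times the latter, all the authors' own. No deposited −log10 q-value was under 2.00 in any list.

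The gene spans were given with hg19 coordinates; with no hg19 annotation used, other lineage factors and markers of other cell types were not analysed here, and the SLFN11 constructs were not checked. Strand came from RefSeq (GRCh38.p14) for the 7 members in its promoter table and from general knowledge for LMO2 and NFE2; gene order came from the same release. Entries sharing an interval were joined and the highest summit kept. With the pseudocount of 1 that MACS2 adds to both terms of a fold, the fold and −log10 p of an entry gave a whole summit pileup within 0.001 for 98.7% to 99.3% of entries. Pileups were scaled by the median ratio over 2122 regions of all 6 libraries. Relative depth came from each list's lowest background, counted in steps of 1 fragment per 10 kb. The pileup needed for listing was the smallest that reached the lowest −log10 p of a list at the region's background, taken as the same multiple of the list's lowest background as where the region was listed. Ratios carry exact conditional binomial 95% intervals. On simulated data 100.0% of 500 pileups per library were recovered and 0 planted losses were misassigned.

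Regions were named by rule: those at or nearest gene starts, those in all 6 libraries, the 3 gained and 3 lost of highest fold per line, and those past 2-fold; in practice all 14 are named. Members and lists were chosen with earlier results of these data known. Alternatives were a −log10 q or a fold of at least 5, lists of matched length (5246), 50% overlap, no flanks, scaling by depth, summed summits and, chosen after seeing the data, flanks of 100 kb. Scripts ran in Python 3.11.15 with scipy 1.17.1, pandas 2.3.3, numpy 2.4.6 and matplotlib 3.10.9.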

Additional observations from a re-analysis of the deposited data

Results flagged for a closer look

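The number of listed intervals at the 9 loci moved in opposite directions between the lines. CPT minus DMSO was −1 for vector, −3 for wild-type and 7 for E669Q. The whole lists went from 5246 to 5806, from 11651 to 5562 and from 8365 to 12337 intervals, and relative depth from 1.00 to 1.09, from 1.72 to 1.09 and from 1.33 to 2.22. The part of depth in the counts was not tested. The scaled pileup of the region past GATA1 gave a log2 CPT over DMSO of −0.59 for vector, 0.14 for wild-type and 0.46 for E669Q. The vector and E669Q values compare different summits within the region. All 3 counting intervals include no change and overlap one another, and the wild-type value was −0.05 when scaled by depth and −0.58 with summits summed. Each line is 1 library per treatment, so neither difference between lines was tested.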

How the results depend on the processing

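Most statements on how the 9 loci were shared depended on the list taken. The number of regions, 14 as deposited, was 8 at −log10 q of at least 5, 9 at fold of at least 5, 6 in lists of matched length, 9 without flanks and 37 with flanks of 100 kb, a choice made after seeing the data; at 50% overlap it was 16. The share in all 6 libraries, 7.14%, was 0% under each alternative other than the 100 kb flanks (8.11%). The lost share of the vector line, 66.7%, was 100% at fold of at least 5, at matched length, at 50% overlap and without flanks, and 60.0% with the wider flanks. That of the wild-type line stayed between 33.3% and 83.3%. That of the E669Q line was 0% at fold of at least 5 and without flanks, 5.56% with the wider flanks and 66.7% at 50% overlap. At −log10 q of at least 5 the vector and E669Q lines, and at matched length the E669Q line, had no DMSO interval left at the loci and gave no value. The number of ratios past 2-fold with an interval off 1 was 0 of 12, again 0 when scaled by depth, and 2 with summits summed, both at GATA1 in E669Q/CPT, which had 3 called summits there against 1 in the library compared; the sum follows the number of summits called. All 12 ratios stayed within their main counting intervals under both alternatives. Scaling by depth in place of shared regions moved ratios by −0.23 to 0.08 on the log2 scale. No paired analysis was possible because each group is 1 library with no replicate number in the labels. Pileups of 7 to 19 fragments limit every comparison.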

Other observations

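The surroundings of the loci were described after their values were seen. Within 100 kb of the 9 spans 37 regions were listed, and 3 of them were in all 6 libraries, the one past GATA1 and 2 around TAL1. One of these, at chr1:47646699-47647358, lay 50.5 kb after the TAL1 start, beyond the end of the gene; an erythroid enhancer of TAL1 is known downstream of the gene, and whether this region is that enhancer was not tested. Its pileup was 9 fragments in vector/DMSO and 12 with CPT, 26 in wild-type/DMSO and 8 in wild-type/CPT, and 20 in both E669Q libraries. CPT over DMSO, scaled, was 1.26 times in the vector line (0.488 to 3.39), 0.555 in the wild-type line (0.217 to 1.26) and 0.689 in the E669Q line (0.352 to 1.35). In the wild-type line this is the opposite direction from the TAL1 promoter region (1.50 times), with both counting intervals including 1. The other, at chr1:47779747-47780445, had its summit 82.0 to 82.1 kb before the TAL1 start. The next protein-coding gene on that side is STIL, read in the same direction as TAL1. The STIL start was not placed on hg19, and whether the region belongs to TAL1 or STIL was not tested. The CPT over DMSO ratio of this region was 0.801 in the vector line (0.325 to 1.94). It was 0.668 in the wild-type line (0.288 to 1.42) and 0.901 in the E669Q line (0.412 to 2.02).

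For the other loci the nearest region found in all 6 libraries lay outside the flanks of 100 kb. It was 126 kb before the start of MYB, 150 kb after that of KLF1, 546 kb before that of LMO2 and 797 kb before that of LDB1. It was over 1 Mb away for RUNX1 (1107 kb), NFE2 (1672 kb) and GATA2 (2577 kb). The whole series holds only 2149 regions found in all 6 libraries. The gap usual for other genes was not computed, so these gaps are not shown to be particular to the loci.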
